A study of Mus musculus with 5 samples.

Results

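The genes described here encode the ligand, receptors, SMAD proteins and inhibitors of the core TGF-beta pathway, measured in invariant natural killer T (iNKT) cells of mouse liver. They are Tgfb1, Tgfbr1, Tgfbr2, Smad2, Smad3, Smad4, Smad7, Ski, Skil and Smurf2, taken as the rows of the count tables whose Ensembl gene ID carries one of these symbols. All 10 symbols matched a single row each, of 55364 gene IDs in every table. The HCC group consisted of 3 libraries from male wild-type C57BL/6 mice that received a single intraperitoneal dose of 25 mg/kg diethylnitrosamine (DEN), a liver carcinogen, when 15 days old, and carried hepatocellular carcinoma (HCC). The healthy group consisted of 2 libraries from wild-type mice given PBS, also when 15 days old. The protocol gives an age of 38 to 42 weeks at killing. Each library was made by 3' mRNA sequencing of cells sorted for binding of a PBS57-loaded CD1d tetramer and for surface TCR beta. The series' text counts each library as a separate mouse, but the tables of HCC 2 and HCC 3 carry names that share a number, so 1 common mouse cannot be told apart from 2.

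TGF-beta 1 is secreted in a latent form. Once released, it binds the type II receptor TGFBR2, which recruits and phosphorylates the type I receptor TGFBR1. TGFBR1 then phosphorylates the receptor SMADs, SMAD2 and SMAD3, which join SMAD4 and enter the nucleus to regulate transcription. The pathway is held back at several levels: SMAD7 and the ubiquitin ligase SMURF2 act on the receptor and the SMADs, and the corepressors SKI and SKIL (SnoN) bind SMAD complexes on DNA. In mice, TGF-beta signalling is needed for the development and maintenance of iNKT cells and restrains their maturation.

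Total counts were 1718452 to 2224356 per library. A library's limit for a count of 0, set at 3 counts, would lie between 1.35 and 1.75 CPM if every count is a read. The 1.35 CPM is that of healthy 1, whose counts may not be single reads, as described below. Levels are CPM, the counts of a row scaled to the total of its own library, and are not divided by transcript length, since 3' reads come from the transcript end. Ratios and shares between genes are therefore of reads. T cell receptor and CD3 chain transcripts were present in every library, and the 10 iNKT and T cell markers summed to 5046 to 5877 CPM in HCC and 4530 to 5549 CPM in healthy libraries. Zbtb16, the factor that defines iNKT cells, had only 0 to 3 counts per library. Klrb1c, also on this list, was uneven within both groups. Its levels were 465, 20.95 and 333 CPM in HCC 1, 2 and 3. In healthy 1 and 2 they were 382 and 5.49 CPM, so the sum does not show that the sorted populations were alike. Healthy 1 stood apart from the others: across genes, its log2 levels correlated with theirs at r = 0.766 to 0.818, against 0.853 to 0.905 among the other 4 libraries (genes are not replicates of each other). It was the lowest of the 5 libraries for 41.9% of the 8468 genes tested. It had the highest total, 2224356 counts, but the fewest genes with a count, 10861 against 11822 to 13229. Among the core, pathway and marker genes its smallest distinct counts were 0, 3, 5, 8, 11, 13 and 16. Each other library held counts of 1 and 4. The counts of healthy 1 may thus have been scaled before deposit, which was not tested, and may stand for fewer reads. Intervals and p-values that use them may then be too narrow or too small. The fold change of each of the 8 tested core genes is therefore also given without healthy 1.

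Across the 10 genes the counts were low, and the smallest p belonged to Smad3, which was higher in HCC libraries. None of the 8 genes that had enough counts for the test passed at an adjusted p under 0.05 in edgeR's quasi-likelihood test of HCC against healthy, where 0% of the 8468 genes tested passed in either direction. At an unadjusted p under 0.05 there was 1 gene, Smad3, beside 3.63% of all genes tested in either direction and 2.15% higher in HCC. For Smad2, Smad3 and Ski, all 3 HCC libraries lay above healthy 1 and healthy 2, which held for 12.8% of all genes tested. For 0 of the 10 genes were all HCC libraries below both healthy libraries, which held for 5.46% of all genes tested. With the TMM scaling of the test, which compensates for differences in RNA composition, the same 3 genes were separated, and the background was 10.6% higher and 8.44% lower. Set against healthy 2 alone, without healthy 1, these 3 genes were still above and Smurf2 was below in all HCC libraries, where 24.2% and 23.3% of all genes tested were.

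**Figure D1:**
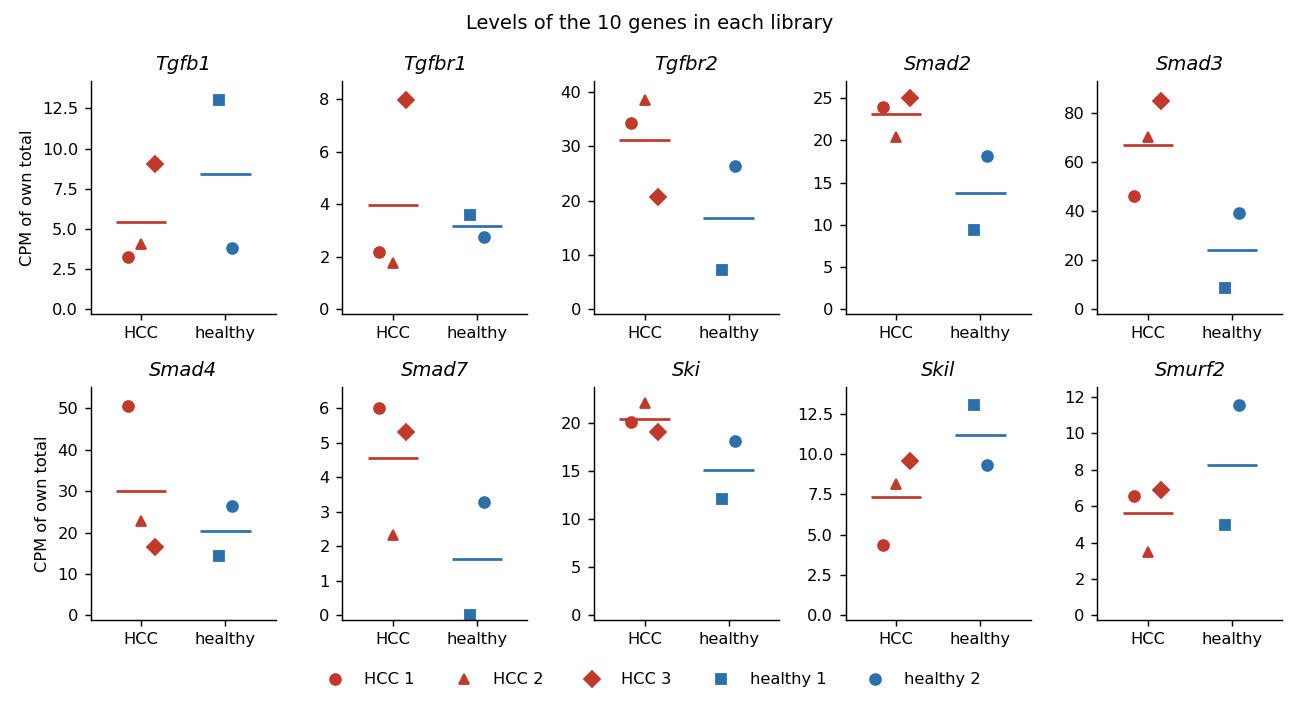
Levels of the 10 genes in each library, in CPM of the library's own total, with 1 panel per gene, HCC libraries in red, healthy libraries in blue and a horizontal line at each group mean. The 3 HCC points of Smad2, Smad3 and Ski lie above both healthy points, while the groups overlap in the other 7 panels.

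The upstream sequences of Smad3 and Tgfbr2 are shown because these genes had the highest fitted fold changes among the 8 tested, a choice made after their values were seen. Both are on chromosome 9 (mm10, minus strand), at 63646767 to 63757994 for Smad3 and 116084293 to 116175360 for Tgfbr2. Each line gives the 250 bases before the annotated transcription start, 5′ to 3′ on the gene's strand, from RefSeq on GRCm38.p6, at chr9:63757995-63758244 for Smad3 and chr9:116175364-116175613 for Tgfbr2. Capitals mark the SMAD box CAGAC or its reverse complement GTCTG, the short element that SMAD3 and SMAD4 bind, and the GC box GGGCGG or its reverse complement CCGCCC, an element bound by SP1.
Smad3: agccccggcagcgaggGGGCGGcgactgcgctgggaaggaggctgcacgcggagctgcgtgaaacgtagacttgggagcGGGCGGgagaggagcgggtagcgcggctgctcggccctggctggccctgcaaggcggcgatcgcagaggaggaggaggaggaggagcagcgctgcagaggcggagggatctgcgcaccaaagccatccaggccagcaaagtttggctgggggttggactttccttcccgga
Tgfbr2: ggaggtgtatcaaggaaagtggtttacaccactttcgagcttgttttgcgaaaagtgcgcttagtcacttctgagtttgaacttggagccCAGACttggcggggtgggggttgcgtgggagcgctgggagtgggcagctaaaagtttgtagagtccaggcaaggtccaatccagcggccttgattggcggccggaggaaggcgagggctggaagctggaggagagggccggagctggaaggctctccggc
The Smad3 window held 2 GC boxes and 0 SMAD boxes, and the Tgfbr2 window held 1 SMAD box, starting at position -160, and 0 GC boxes. Among all 32851 promoter windows of this length, 42.2% held a SMAD box and 32.7% a GC box, so both elements are common by their letters alone, and a match is not evidence of a bound site.

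Smad3 encodes the receptor SMAD that binds DNA directly. It was at 46.3, 70.4 and 84.9 CPM in HCC 1, 2 and 3, against 8.54 and 39.5 CPM in healthy 1 and 2, from 85, 121 and 160 counts against 19 and 72. The lowest HCC library lay just above healthy 2, while healthy 1 was far below all the others. Group means were 67.2 ± 19.5 CPM in HCC and 24.0 ± 21.9 CPM in healthy libraries (SD, n = 3 and n = 2). The fitted log2 fold change was 1.40 (95% interval 0.060 to 2.74, SE 0.60), with an unadjusted p of 0.0422 and an adjusted p of 0.9999 in edgeR, far from the threshold. Smad3 was at rank 257 by p among the 8468 genes. Both healthy libraries weighed heavily on the value. Without healthy 1 the log2 fold change was 0.74 (unadjusted p = 0.16 in edgeR), and without healthy 2 it was 2.68, with an adjusted p of 0.0472 in edgeR where healthy 1 as the lone healthy library is taken to vary as the HCC libraries do and 21% of all genes had an unadjusted p under 0.05. Without HCC 3 it was 1.15, with an unadjusted p of 0.131 in edgeR, and without HCC 2 it was 1.42, with an unadjusted p of 0.0868 in edgeR. With HCC 2 and HCC 3 summed it was 1.29, with an unadjusted p of 0.102 in edgeR.

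Transcripts of hepatocytes and red cells, which should be absent from sorted iNKT cells, were higher in the same group. The 16 hepatocyte markers summed to 69.1, 294.5 and 632 CPM in HCC 1, 2 and 3, and to 50.8 and 56.0 CPM in healthy 1 and 2, with Apob and Tat at 0 in every library. HCC 3 was highest and HCC 1 lowest of the HCC libraries for this sum. Singly, Apoa1, Ttr, Serpina1a and Hp were above both healthy libraries in every HCC library, while the other markers, Alb among them, overlapped. The 7 erythroid markers summed to 7391, 17080 and 15380 CPM against 2975 and 2787 CPM, with Slc4a1 at 0 throughout. All HCC libraries were thus above both healthy libraries for both sums. The 8 markers of stellate cells and fibroblasts, cells in which this pathway is also active, summed to 3.81, 28.5 and 13.8 CPM against 5.84 and 0 CPM, with Lrat, Rgs5, Des and Acta2 at 0 in every library. Macrophage and Kupffer cell markers, 11 genes, summed to 31.6, 33.8 and 11.2 CPM against 48.1 and 8.78 CPM, with Vsig4 at 0. These sums overlapped between the groups. The 6 liver endothelial markers summed to 1.75 to 3.18 CPM in HCC and 0 to 0.549 CPM in healthy libraries, with Stab2, Lyve1 and Cdh5 at 0. For this sum, too, all HCC libraries were above both healthy libraries, but near the detection limit. It came mostly from Pecam1, with 4, 3 and 4 counts in HCC and 0 and 1 in healthy libraries. B cell markers, 4 genes, lay at 0 to 25.6 CPM in HCC and 4.95 to 16.5 CPM in healthy libraries. The 4 NK cell markers summed to 23.4, 1.16 and 4.25 CPM against 22.5 and 1.10 CPM, with Ncr1 at 0. Both of these sums overlapped. The part of these cells in the values of the pathway genes was not tested, and in sorted populations measured in bulk, fewer cells of a type and less RNA per cell cannot be told apart.

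Smad2, the other receptor SMAD, was at 23.9, 20.4 and 24.9 CPM in HCC libraries and 9.44 and 18.1 CPM in healthy libraries. The HCC libraries were close to each other, and HCC 2 was only slightly above healthy 2. Means were 23.1 ± 2.41 CPM in HCC and 13.8 ± 6.13 CPM in healthy libraries. The log2 fold change of 0.61 (95% interval -0.63 to 1.85) did not pass, with an unadjusted p of 0.298 in edgeR, and was 0.33 without healthy 1 and 1.00 without healthy 2. Smad3 supplied 65.9%, 77.6% and 77.3% of the counts of both receptor SMADs in HCC 1, 2 and 3, and 47.5% and 68.6% in healthy 1 and 2. The Wilson 95% intervals of these shares ran from 57.4 to 73.5%, 70.4 to 83.4% and 71.1 to 82.5% in HCC, and from 32.9 to 62.5% and 59.2 to 76.7% in healthy libraries, so the groups overlapped. These intervals cover counting error only, since these are counts of reads, not of distinct molecules. The interval of healthy 1 is too narrow even for that error if its counts were scaled up before deposit.

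Smad4, the common partner of the receptor SMADs, did not separate the groups. It was at 50.6, 22.7 and 16.5 CPM in HCC 1, 2 and 3, against 14.4 and 26.3 CPM in healthy 1 and 2. HCC 1 alone was above healthy 2, and HCC 3 was close to healthy 1. The log2 fold change was 0.41 (95% interval -0.93 to 1.75, unadjusted p = 0.508 in edgeR) with all libraries and 0.16 without healthy 1. It was -0.22 without HCC 1, so its direction rested on that library.

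Tgfbr2, the type II receptor that binds the ligand, was at 34.3, 38.4 and 20.7 CPM in HCC 1, 2 and 3, and at 7.19 and 26.3 CPM in healthy 1 and 2. HCC 3 was below healthy 2, and healthy 1 was the lowest library. Means were 31.1 ± 9.26 CPM in HCC and 16.8 ± 13.5 CPM in healthy libraries. The log2 fold change of 0.78 (95% interval -0.56 to 2.12, unadjusted p = 0.223 in edgeR) was 0.20 without healthy 1 and 1.80 without healthy 2.

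Tgfbr1, the type I receptor (chromosome 4, 47353222 to 47414931), had 4, 3 and 15 counts in HCC libraries and 8 and 5 counts in healthy libraries. It did not pass the filter on low counts and was not tested. HCC 3, at 7.96 CPM, was above every other library, which lay at 1.75 to 3.60 CPM. HCC 3 also had the lowest Tgfbr2 level of the HCC group, so that Tgfbr2 made up 72.2% of the counts of the receptor pair there, against 94.0% in HCC 1 and 95.7% in HCC 2. In healthy 1 and 2 the share was 66.7% and 90.6%, and the groups overlapped.

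Tgfb1, the ligand (chromosome 7, 25687002 to 25705077), was at 3.27, 4.07 and 9.02 CPM in HCC 1, 2 and 3, from 6, 7 and 17 counts. In healthy 1 and 2 it was at 13.0 and 3.84 CPM, from 29 and 7 counts. Healthy 1 held the highest level, and healthy 2 lay among the lower HCC libraries. The log2 fold change was -0.87 (95% interval -3.10 to 1.36, unadjusted p = 0.402 in edgeR) with all libraries and 0.49 without healthy 1. The direction of Tgfb1 thus depended on that library. All 6 markers of platelets, which are rich in this ligand, were at 0 in every library.

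Of the inhibitors, Ski, Skil and Smurf2 were tested and none passed. Ski, a corepressor of SMAD target genes (chromosome 4, 155154075 to 155222592), was at 20.1, 22.1 and 19.1 CPM in HCC libraries and at 12.1 and 18.1 CPM in healthy libraries. All HCC libraries were above both healthy libraries, but HCC 3 exceeded healthy 2 by 36 counts to 33. The log2 fold change was 0.27 (95% interval -0.93 to 1.48), with an unadjusted p of 0.624 in edgeR, and 0.14 without healthy 1.

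Skil, which encodes the related corepressor SnoN (chromosome 3, 31095058 to 31122577), was at 4.35, 8.15 and 9.55 CPM in HCC 1, 2 and 3 and at 13.0 and 9.33 CPM in healthy 1 and 2. HCC 3 lay between the healthy libraries, and HCC 1 was the lowest of all. Its log2 fold change was -0.81 (95% interval -2.57 to 0.944, unadjusted p = 0.326 in edgeR), and -0.37 without healthy 1. Ski over Skil, a ratio of counts within a library that does not depend on scaling, was 4.62, 2.71 and 2.00 in HCC libraries and 0.931 and 1.94 in healthy libraries. The ratio of HCC 3 was barely above that of healthy 2, from 36 over 18 counts against 33 over 17.

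Smurf2, a ubiquitin ligase that targets SMADs and receptors (chromosome 11, 106820066 to 106920715), was at 6.53, 3.49 and 6.90 CPM in HCC libraries and at 4.95 and 11.5 CPM in healthy libraries. Healthy 1 lay within the HCC range and healthy 2 above it. The log2 fold change was -0.65 (95% interval -2.71 to 1.41, unadjusted p = 0.499 in edgeR), -1.03 without healthy 1 and -0.08 without healthy 2.

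Smad7, the inhibitory SMAD that competes for the activated receptor, had 11, 4 and 10 counts in HCC libraries and 0 and 6 counts in healthy libraries. It did not pass the filter on low counts. Its levels were 5.99, 2.33 and 5.31 CPM in HCC 1, 2 and 3 and 3.29 CPM in healthy 2, and healthy 1 had a count of 0. A limit of 1.35 CPM for that 0 holds only if the counts of healthy 1 are unscaled reads. HCC 2 was below healthy 2, so the groups overlapped.

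**Figure D2:**
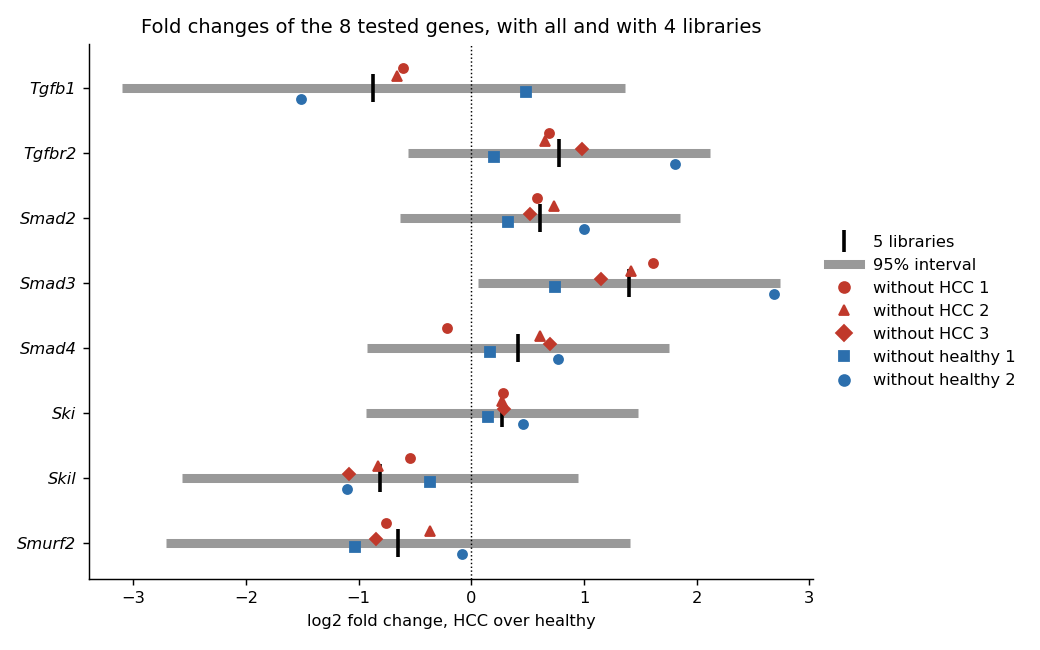
Fitted log2 fold changes, HCC over healthy, of the 8 tested genes with all 5 libraries (black bars, with 95% intervals in grey) and with 1 library left out (symbols; Tgfb1 was not tested without HCC 3). The interval of Smad3 alone lies above 0, and the symbols of Tgfb1 and Smad4 fall on both sides of 0.

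Summed by role, the receptor SMADs, mainly through Smad3, covered a wider range of CPM over the libraries than the inhibitors did. Smad2 and Smad3 together were at 70.2, 90.8 and 109.9 CPM in HCC 1, 2 and 3 and at 18.0 and 57.6 CPM in healthy 1 and 2. Smad7, Ski, Skil and Smurf2 together were at 37.0, 36.1 and 40.9 CPM in HCC libraries, between the 30.1 and 42.3 CPM of healthy 1 and 2. The receptor pair summed to 36.5, 40.1 and 28.7 CPM in HCC libraries and to 10.8 and 29.1 CPM in healthy libraries, so that HCC 3 and healthy 2 were nearly equal. Counts of the 2 receptor SMADs over those of the 4 inhibitors gave ratios of 1.90, 2.52 and 2.69 in HCC 1, 2 and 3, from 129 over 68, 156 over 62 and 207 over 77 counts. In healthy 1 and 2 the ratios were 0.597 and 1.36, from 40 over 67 and 105 over 77 counts, where those of healthy 1 may stand for fewer reads. All HCC ratios were above both healthy ratios. This grouping was made after the values were seen, and Smad3 supplied most of the receptor SMAD counts in every library except healthy 1, so the ratio is a description of these 5 libraries and was not tested.

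**Figure D3:**
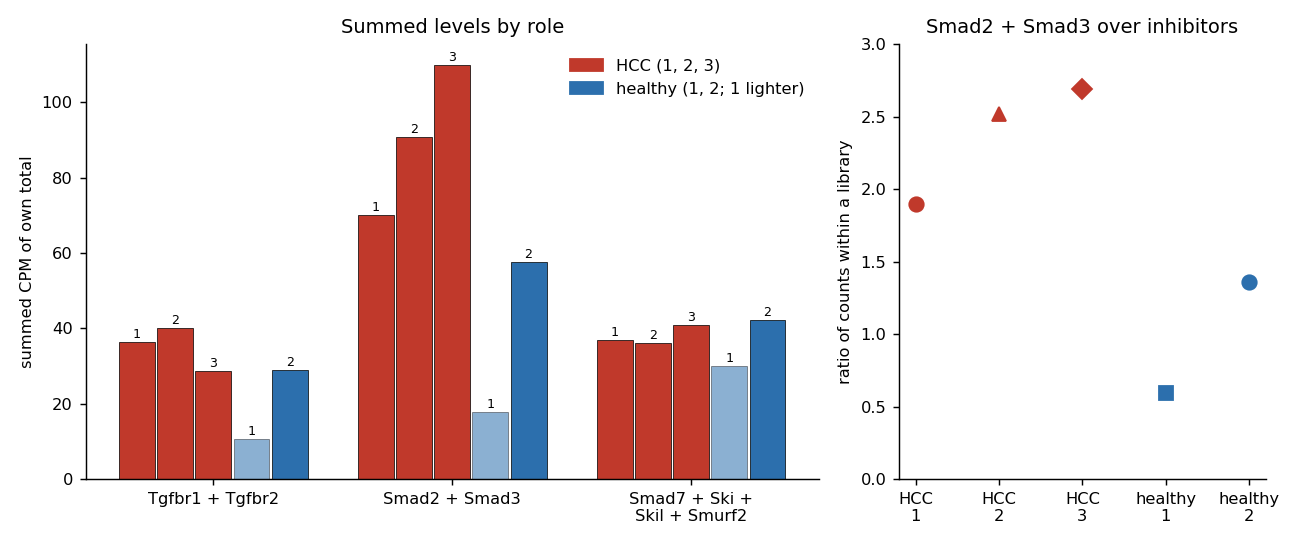
Left, summed CPM of the receptors, the receptor SMADs and the inhibitors in each library, with HCC in red, healthy in blue and the library number above each bar. Right, the ratio of Smad2 and Smad3 counts to inhibitor counts within each library, at 1.90 to 2.69 in HCC and 0.597 and 1.36 in healthy libraries.

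Healthy 1 was the lowest library for 5 of the 8 tested genes, namely Tgfbr2, Smad2, Smad3, Smad4 and Ski, and for Smad7 among those not tested, set against the background of 41.9% on the same scale. With TMM scaling Smad4 was no longer among them, and the background was 32.5%. Healthy 1 was the highest library for Tgfb1 and Skil, beside 18.8% of all genes tested. Of the 8 tested genes 5 had a fitted level higher in HCC, with a median log2 fold change of 0.34, beside 50.3% and a median of 0.0046 over all genes tested. Scaling to library totals alone moved the median of all genes to 0.16 and reversed none of the 8 directions.

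Smad4, Smad7 and Smad2 lie within 2.67 Mb of each other on chromosome 18, at 73639009 to 76310963, and their levels were highest in HCC 1, HCC 1 and HCC 3, in that order. None of the 10 genes had an exon in common with another gene that carried a count. Of the 31-base words in the last 300 bases of the annotated transcripts, where 3' reads fall, 1.61% of those of Tgfb1 also occur in other genes, and 0% of those of the other 9 do.

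Further genes of the pathway were counted from lists of its ligands, receptors, SMADs, ubiquitin ligases, cofactors, non-SMAD kinases and T cell targets, chosen with earlier results of these data known. Of 106 such genes 21 had no count in any library and 54 were tested. None passed in edgeR in either direction, with 0 at an adjusted and 0 at an unadjusted p under 0.05, while Smad3 was the only one of the 8 tested core genes to have an unadjusted p under 0.05. The 54 had 30 fitted levels higher in HCC and 24 lower, with a median log2 fold change of 0.12. All HCC libraries were above both healthy libraries for 7 of them (among them Bmp7, Wwp1, Foxo3, Rhoa, Junb and Id3) and below both for 4 (Smad5, Runx1, Tab2 and Map2k3), on a scale where the backgrounds were 12.8% and 5.46%.

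The other ligands were mostly not detected: Tgfb2, Tgfb3, Inhba, Inhbb and Bmp4 had 0 counts in every library. Furin, the protease that cleaves the TGF-beta precursor, was at 45.7, 54.1 and 31.3 CPM in HCC libraries and 53.5 and 19.2 CPM in healthy libraries. Its log2 fold change was -0.0097 with all libraries and 1.14 without healthy 1, both with p above the threshold in edgeR. Nrros, a protein that tethers latent TGF-beta to the surface of myeloid cells and microglia, was at 57.7, 25.6 and 50.4 CPM in HCC libraries and at 16.6 and 124 CPM in healthy libraries, so the healthy libraries enclosed the HCC group.

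Receptors of the activin and BMP branches were near the detection limit. Of 12 listed receptors 5 had no count and 0 were tested. Acvr1b, an activin type I receptor that also signals through SMAD2 and SMAD3, had 2, 11 and 3 counts in HCC libraries and 0 and 8 in healthy libraries. Bmpr1a was at 0.531 to 3.81 CPM in HCC and 0 to 1.65 CPM in healthy libraries. Smad6 and Smad9, an inhibitory and a BMP-activated SMAD, had 0 counts throughout.

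Among adaptors, Fkbp1a, whose product FKBP12 binds the type I receptor and keeps it inactive, was at 143 ± 8.36 CPM in HCC and 123 ± 71.2 CPM in healthy libraries, and Strap, which works with SMAD7 at the receptor, at 53.1 ± 3.89 and 39.5 ± 24.1 CPM in the same order. Without healthy 1 the log2 fold change of Fkbp1a was -0.31 against 0.089 with all libraries, and that of Strap -0.12 against 0.31. The deubiquitinase Usp4, which acts on TGFBR1, was at 49.5 ± 20.1 CPM in HCC and 54.4 ± 7.66 CPM in healthy libraries, and the ligase Stub1 at 43.6 ± 18.0 and 42.4 ± 15.7 CPM.

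Of the nuclear cofactors 9 of 11 tested had fitted levels higher in HCC, beside 50.3% of all genes tested. Their median log2 fold change was 0.29, and healthy 1 was the lowest library for 6 of the 11, beside 41.9% of all genes tested. Sp1, a factor that cooperates with SMADs at GC boxes, was at 70.2, 109 and 107 CPM in HCC libraries and 10.8 and 90.6 CPM in healthy libraries. Healthy 1 was again far below the rest, and the log2 fold change of 0.85 became 0.046 without it. Without healthy 2 it was 2.85 (adjusted p = 0.0286 in edgeR), in the fit with healthy 1 as the lone healthy library, where 102 genes were called higher and 94 lower. The corepressor Ctbp1 was at 83.0 ± 14.6 CPM in HCC and 74.0 ± 50.6 CPM in healthy libraries. In the non-SMAD branch Rhoa, a small GTPase, was at 590, 768 and 606 CPM in HCC and 332 and 513 CPM in healthy libraries (log2 fold change 0.47, unadjusted p = 0.195 in edgeR), and Tab2, an adaptor of the kinase TAK1, at 46.3, 32.6 and 43.0 CPM against 46.8 and 51.0 CPM.

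Of the target genes of the pathway in T cells, 0 passed. Of 14 tested 8 had fitted levels higher in HCC and 6 lower, with a median log2 fold change of 0.19. Tbx21, which encodes T-bet and is repressed by TGF-beta in T cells, was at 317 ± 71.1 CPM in HCC and 353 ± 23.7 CPM in healthy libraries (log2 fold change -0.36, unadjusted p = 0.348 in edgeR), and its log2 fold change was -0.11 to -0.54 with a library left out. Cxcr6, the chemokine receptor that keeps iNKT cells in the liver, was at 498 ± 76.6 CPM in HCC libraries, against 247 and 948 CPM in healthy 1 and 2. Its log2 fold change was -0.36 with all libraries and 0.71 without healthy 2. Junb, an AP-1 subunit induced by TGF-beta and named here after its values were seen, was at 92.5, 90.8 and 79.6 CPM in HCC and 51.2 and 54.3 CPM in healthy libraries, and did not pass (log2 fold change 0.54, unadjusted p = 0.176 in edgeR). Itgae, the integrin subunit CD103 that TGF-beta induces in tissue-resident T cells, had 0 counts in the HCC libraries and at most 2 in the healthy libraries, and Foxp3 had 0 in all 5.

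**Figure D4:**
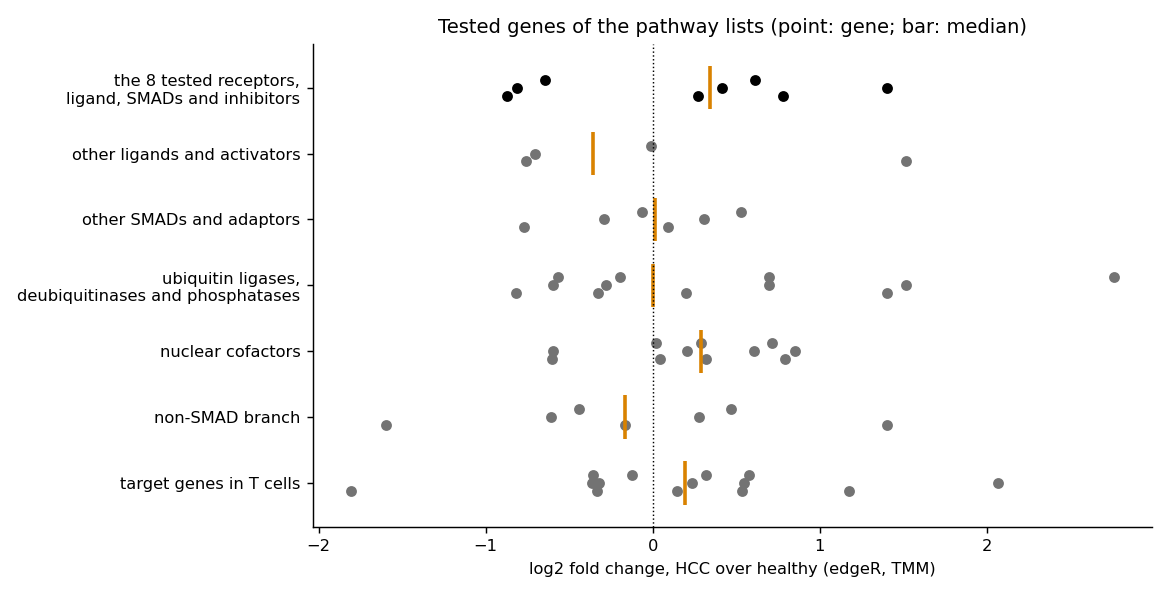
Fitted log2 fold changes, HCC over healthy, of the tested genes of each pathway list (grey points) and of the 8 tested core genes (black points), with orange bars at the medians. Medians lie between -0.36 and 0.34, and 0 receptors of the activin and BMP branches were tested, so that list has no row.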

How the data were processed

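The 3' mRNA libraries (QuantSeq for Ion Torrent, per the labels' protocols) were deposited as counts per Ensembl gene ID in 1 table per library, and were used as raw counts. Given the steps in the counts of healthy 1, its table may be scaled, which was not tested. The submitters' processing notes name HISAT2, Bowtie2 and the build mm10, and the counting program, annotation and strand setting are not given in the sources used here. Symbols came from GENCODE M21, which matched 55104 of 55364 IDs. Promoter windows came from RefSeq on GRCm38.p6 for 6 of the 10 genes.

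In R 4.3.3 with edgeR 4.0.16, filterByExpr left 8468 genes, TMM factors were computed, and HCC was tested against healthy by the quasi-likelihood method (glmQLFTest) on all libraries, with Benjamini-Hochberg adjustment over all genes tested and a threshold of 0.05. The biological coefficient of variation was 53.8%. CPM values use each table's own total, with 1718452 to 2224356 counts per library, and fold changes use TMM. Pairs of libraries of 1 group differed beyond sampling noise, with a chi-square per degree of freedom of 14.7 to 54.9. The 54.9 was that of healthy 1 and healthy 2, and would be raised if the counts of healthy 1 were scaled up.

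The core genes, lists and tests were chosen with earlier results of these data known. All core genes are named. From each pathway list the genes at an unadjusted p under 0.05 were to be named or, with none, the 2 with the highest mean CPM. Others are named for a count of 0, for separated groups, or as said in the text. One gene whose groups were separated is not reported here. Alternatives were other scalings and filters, protein-coding genes only, DESeq2 1.42.0, limma-voom (limma 3.58.1), a block for the replicate number, a sum of HCC 2 and HCC 3, and each library left out.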

Additional observations from a re-analysis of the deposited data

How the results depend on the processing

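For the 8 tested core genes, direction stayed as reported in all 69 fitted values, and none passed at the adjusted threshold, by another scaling, filter, tool or gene set, with the replicate block or with HCC 2 and HCC 3 summed (a gene dropped by a filter gives no value, and DESeq2 gave no adjusted p for Tgfb1 and Smurf2). With 1 library left out, log2 fold changes ran from -0.22 to 0.77 for Smad4, from -1.52 to 0.49 for Tgfb1, and from 0.74 to 2.68 for Smad3, which passed only without healthy 2 (adjusted p = 0.0472 in edgeR). The number of core genes at an unadjusted p under 0.05 was 0 with HCC 2 and HCC 3 summed, beside 1.6% of all genes, and 0 to 2 with a library left out, beside 1.68 to 21%. The 2 were Smad3 and Tgfbr2 without healthy 2, where the share was 21%. With each library left out in turn, a choice made after seeing the data as was the TMM-scaled count, 3 to 6 of the 10 genes had all remaining HCC libraries above the remaining healthy ones and 0 to 2 below, beside 17.7 to 45.7% and 9.81 to 23.3% of all genes tested. The 6 were found without healthy 2, where the share was 45.7%. Over all genes edgeR called 29 higher and 24 lower with no filter on low counts, 0 to 102 higher and 0 to 94 lower with a library left out, and 3 higher with the replicate block, and DESeq2 called 8 higher. The groups share the numbers 1 and 2, and the labels give nothing else that pairs them. Deviations from the group mean correlated at r = -3.57e-05 and 0.125 between same-numbered libraries. With 2 healthy libraries the deviations of 1 mirror those of the other, so these values cannot decide on a pairing. Klrb1c, at 382 and 465 CPM in healthy 1 and HCC 1, was at 5.49 and 20.95 CPM in healthy 2 and HCC 2. The NK cell marker sum was likewise higher in both libraries numbered 1 than in both numbered 2. The macrophage and Kupffer cell sum was not split by number. These were picked after the values were seen, and whether a batch follows the numbers was not tested. With the block Smad3 had a log2 fold change of 1.38 (adjusted p = 0.9999 in edgeR).

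Of the other named genes, Furin, at -0.0097, was at 0.26 with library totals only, 0.073 with no filter, 0.23 in limma-voom, 0.39 with the replicate block, 0.019 with HCC 2 and HCC 3 summed and -0.59 to 1.14 with a library left out. Ctbp1 was at -0.0095 with protein-coding genes only and Stub1 at 0.037 with library totals only. With a library left out, the ranges were -0.44 to 0.82 for Ctbp1, -0.96 to 0.71 for Cxcr6, -0.31 to 0.68 for Fkbp1a, -1.48 to 1.15 for Nrros, -0.12 to 0.95 for Strap and -0.59 to 0.44 for Stub1. The cause of these changes was not tested. Low counts and the spread between libraries limit single genes to wide intervals.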
